A study of Mus musculus with 9 samples.

Results

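The 40 genes described here encode the machinery with which the endoplasmic reticulum takes in, folds, checks and sends out secreted proteins. They were chosen by their textbook function, by a rule that uses no measured value but with earlier results of these data known, and fall into 15 folding genes, 9 genes of degradation, 12 of translocation, 2 of export and 2 stress sensors. Of the 40, 39 had a probe set that the array's annotation assigns to a single gene, out of 18193 genes with such a probe set, and all 39 were among the 10331 genes bright enough to be tested. Sec61g, which encodes the small gamma subunit of the translocation channel, was not analysed here.

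The cells were germinal center (GC) B cells of mouse spleen, hybridised to 9 Affymetrix whole-genome mouse arrays, 3 for each of 3 genotypes. All animals carried Cg1-Cre, a Cre recombinase expressed from the immunoglobulin gamma 1 locus, which becomes active in B cells once they enter the GC response; Foxo1 was therefore meant to be removed in these cells and not in the whole animal. The WT animals were FOXO1+/+, the HET animals FOXO1f/+ with 1 floxed allele, and the KO animals FOXO1f/f with both alleles floxed, so that even the controls expressed Cre. Mice of every genotype were 10 weeks old, were injected with sheep red blood cells on day 0 and day 5, and gave spleens on day 12. The cells were sorted as B220 high, PNA high and CD95 high. The labels give a single animal for each array, whereas the design text speaks of pools; the sources used here name no sex, litter or batch, and p-values measure the spread between these arrays only. Foxo1 itself, which encodes a forkhead transcription factor, had signals of 5432, 5300 and 5616 on the WT arrays, 3633, 3581 and 3479 on the HET arrays and 983, 1392 and 727 on the KO arrays. Its log2 difference was -2.45 in KO against WT (limma adjusted p = 2.31e-06).

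Proteins bound for the membrane or for secretion enter the endoplasmic reticulum through the Sec61 channel and are folded there by chaperones and by enzymes that form disulfide bonds. Chains that fail to fold are pulled back into the cytosol and degraded, and folded ones leave in vesicles coated with COPII. When unfolded protein accumulates, the sensors ATF6, IRE1 (encoded by Ern1) and PERK (encoded by Eif2ak3) start the unfolded protein response, which raises the transcription of many of these genes. Plasma cells, the antibody-secreting descendants of B cells, are known for a greatly enlarged endoplasmic reticulum, while GC B cells secrete little.

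The best known DNA sequence through which this response acts is the endoplasmic reticulum stress element (ERSE), CCAAT and CCACG separated by 9 bases. RefSeq promoter windows (GRCm38.p6, 250 bases before to 50 after the annotated transcript start) were found for 33 of the 40 genes. Manf, Mzb1, Derl1, Sec61a1, Ssr2, Spcs3 and Atf6 had none. Of the 33, 9 (27.3%) held an ERSE on either strand. Among all 27025 genes with a window, these 9 included, 37 (0.137%) held an ERSE. The members were chosen by textbook function, so their higher share is a description and no test. Of the genes with a window, 7 of 13 folding genes, 2 of 8 degradation genes and 0 of 9 translocation genes carried it. A gene was counted if any of its windows held the motif, and Derl2 and Sec23b had 2 windows each. The elements are shown because a larger share of these genes than of all genes with a window held one. Each is written 5′ to 3′ in the direction of the element, with the CCAAT and CCACG parts in capitals.

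Hspa5: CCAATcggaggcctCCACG
Hsp90b1 (farther from the start): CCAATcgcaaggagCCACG
Hsp90b1 (nearer to the start): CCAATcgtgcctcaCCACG
Pdia6: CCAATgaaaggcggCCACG
Calr: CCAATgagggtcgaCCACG
Canx: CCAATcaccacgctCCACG
Dnajc3: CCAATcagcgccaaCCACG
Creld2: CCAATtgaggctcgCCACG
Syvn1: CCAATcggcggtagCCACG
Derl3: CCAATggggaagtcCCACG

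The 10 elements lay between 212 and 26 bases before the start, 6 of them on the gene's own strand, and the 9 bases between the parts differed in each. Hsp90b1 was the only member with 2 exact matches. Near matches with a changed base in either part were not counted, in Hspa5 or any other gene. The related ERSE-II (ATTGG, 1 base, CCACG) was found in Dnajb11 and Herpud1 (6.06%), against 0.0444% of all genes with a window. The unfolded protein response element (UPRE, TGACGTGG) was in Sec24d alone (3.03%), against 0.714%. In a wider list of pathway genes described further on, 87 had a window. Of these 87, 1 (1.15%) held an ERSE, 1 an ERSE-II and 8 (9.2%) a UPRE, a larger share than among the members. The forkhead core GTAAACA was in 0 of the 33 genes with a window, against 4.05% of all genes with a window. At that share, 0 in 33 cannot be told from the background. Either part alone is common. CCAAT was present in 78.8% of the members with a window against 41.1% of all such genes, and CCACG in 81.8% against 35.5%. Parts inside an ERSE or ERSE-II were included in both counts. A match describes these letters only and was not tested for binding.

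**Figure D1:**
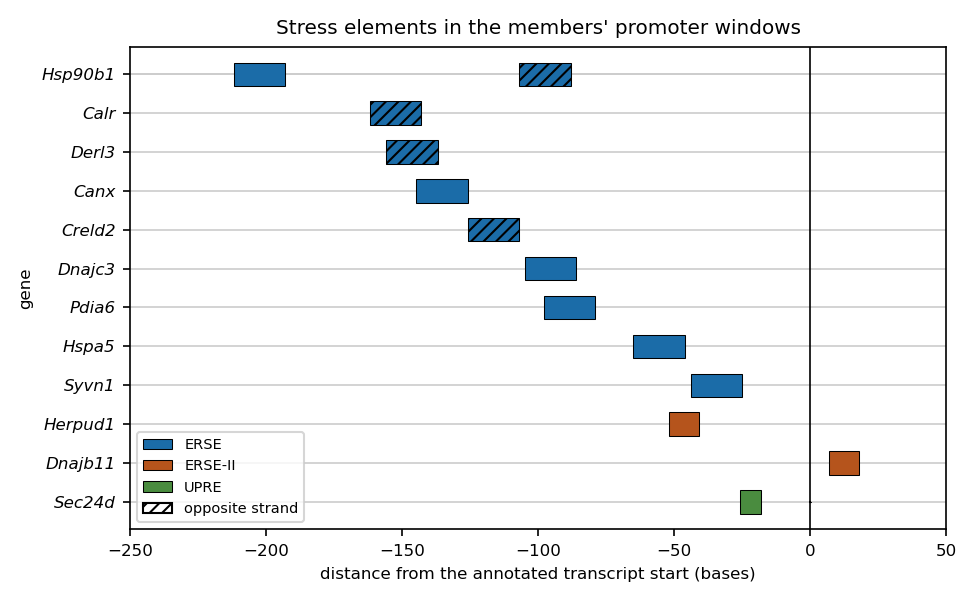
Position of each ERSE, ERSE-II and unfolded protein response element (UPRE) in the members' promoter windows, in bases from the annotated transcript start (vertical line at 0); hatched boxes lie on the strand opposite to the gene. The ERSEs of 9 genes lie between 212 and 26 bases before the start, and Hsp90b1 has 2.

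The 250 bases before the start are given for 3 genes whose values are described further on: Hspa5, the classic target of the response, Hsp90b1 and Edem1. Capitals mark the ERSE parts as they read on the gene's strand. The first stretch is chr2:34771840-34772089 on the plus strand, the second chr10:86705445-86705694 on the minus strand and the third chr6:108828391-108828640 on the plus strand (RefSeq, GRCm38.p6).

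Hspa5: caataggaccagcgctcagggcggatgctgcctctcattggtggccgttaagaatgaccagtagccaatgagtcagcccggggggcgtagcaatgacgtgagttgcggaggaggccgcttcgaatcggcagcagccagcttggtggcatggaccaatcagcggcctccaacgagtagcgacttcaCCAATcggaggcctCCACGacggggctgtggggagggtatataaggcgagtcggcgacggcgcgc
Hsp90b1: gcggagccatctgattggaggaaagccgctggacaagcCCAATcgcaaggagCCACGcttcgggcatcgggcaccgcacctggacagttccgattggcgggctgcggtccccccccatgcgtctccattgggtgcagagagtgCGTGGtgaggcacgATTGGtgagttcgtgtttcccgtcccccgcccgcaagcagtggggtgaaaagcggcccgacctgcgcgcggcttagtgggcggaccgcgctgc
Edem1: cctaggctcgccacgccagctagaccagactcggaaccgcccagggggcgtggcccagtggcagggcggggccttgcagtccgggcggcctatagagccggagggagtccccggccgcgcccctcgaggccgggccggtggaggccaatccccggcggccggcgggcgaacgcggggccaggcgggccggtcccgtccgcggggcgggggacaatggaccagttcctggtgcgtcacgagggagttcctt

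In Hsp90b1 the nearer element lies on the opposite strand, so its parts appear as CGTGG and ATTGG. The Edem1 window held no ERSE, ERSE-II or UPRE.

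Values below are MAS5 signals, a linear brightness that the authors scaled to the same trimmed mean on each array, and differences are log2 differences fitted with limma over all 9 arrays. They compare a gene with itself across genotypes; the signals of different probe sets are on no common scale. In these bulk samples fewer cells of a type and less RNA per cell cannot be told apart. Agreement between arrays was close, with correlations of log2 signals of 0.984 to 0.990 within genotypes and 0.974 to 0.990 between them. Array medians were 47.4 to 48.0 on KO arrays, 42.9 to 44.8 on WT and 44.0 to 44.96 on HET arrays.

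In KO against WT, 3 of the 39 genes rose at an adjusted p under 0.05 and 0 fell: the chaperone Hsp90b1, the degradation factor Edem1 and the sensor Atf6. Over all 10331 genes tested, 6.10% were higher (630) and 5.83% lower (602) in KO; with arrays centred on their medians this split was 495 and 716. The members' median difference was 0.040, against 0.011 for all genes, and 23 of 39 (59.0%) were above zero, against 52.3% of all genes; 9 (23.1%) had an unadjusted p under 0.05, against 25.7% of all genes. Their differences were mostly small. The median absolute difference was 0.080 against 0.133 over all genes, and 8 members (20.5%) against 27.4% of all genes exceeded 0.25 in either direction. The 95% interval lay within 0.3 of zero for 25 of the 39 members and for 3562 of the 10331 genes. The members' standard errors were also smaller, with a median of 0.072 against 0.105 over all genes. The part of this precision in the small differences was not tested. In 7 members every KO array was above every WT array, which held for 16.2% of all genes, and in 2 every KO array was below, which held for 13.5%. The call count was 5 under quantile normalization, where Calr and Sel1l were added.

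**Figure D2:**
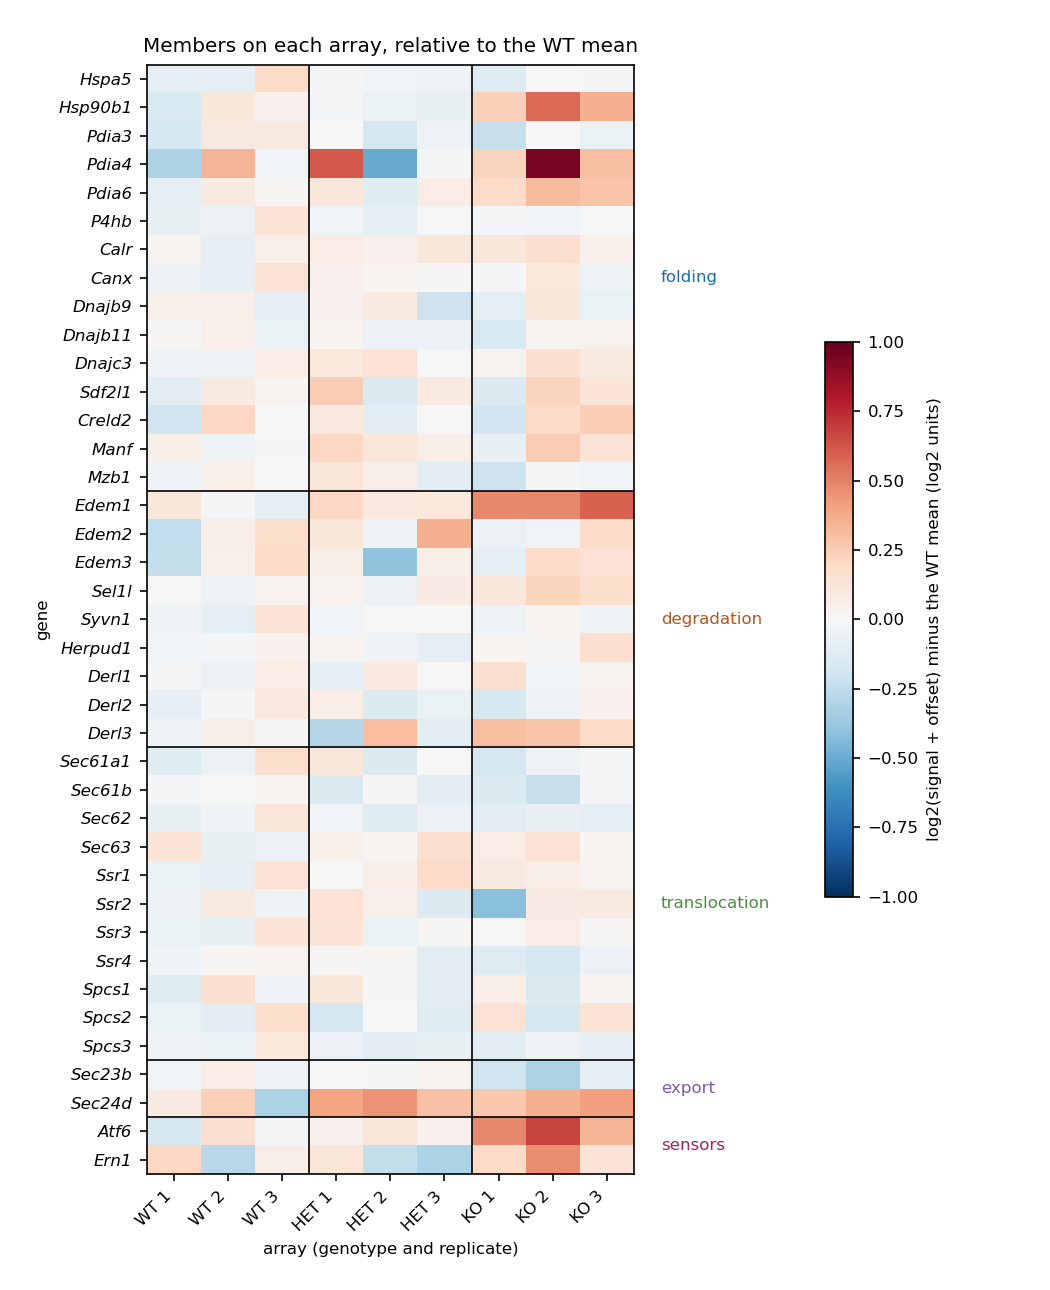
Log2(signal + offset) of each of the 39 measured members on each array, minus the mean of the 3 WT arrays, in log2 units; columns are arrays by genotype, rows are genes grouped by role. Edem1, Hsp90b1 and Atf6 are higher on all 3 KO arrays, Sec24d is higher on all HET and KO arrays than on any WT array, and among the translocation genes Ssr2 is low on KO array 1 (signal 1305 against a WT mean of 1742).

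**Figure D3:**
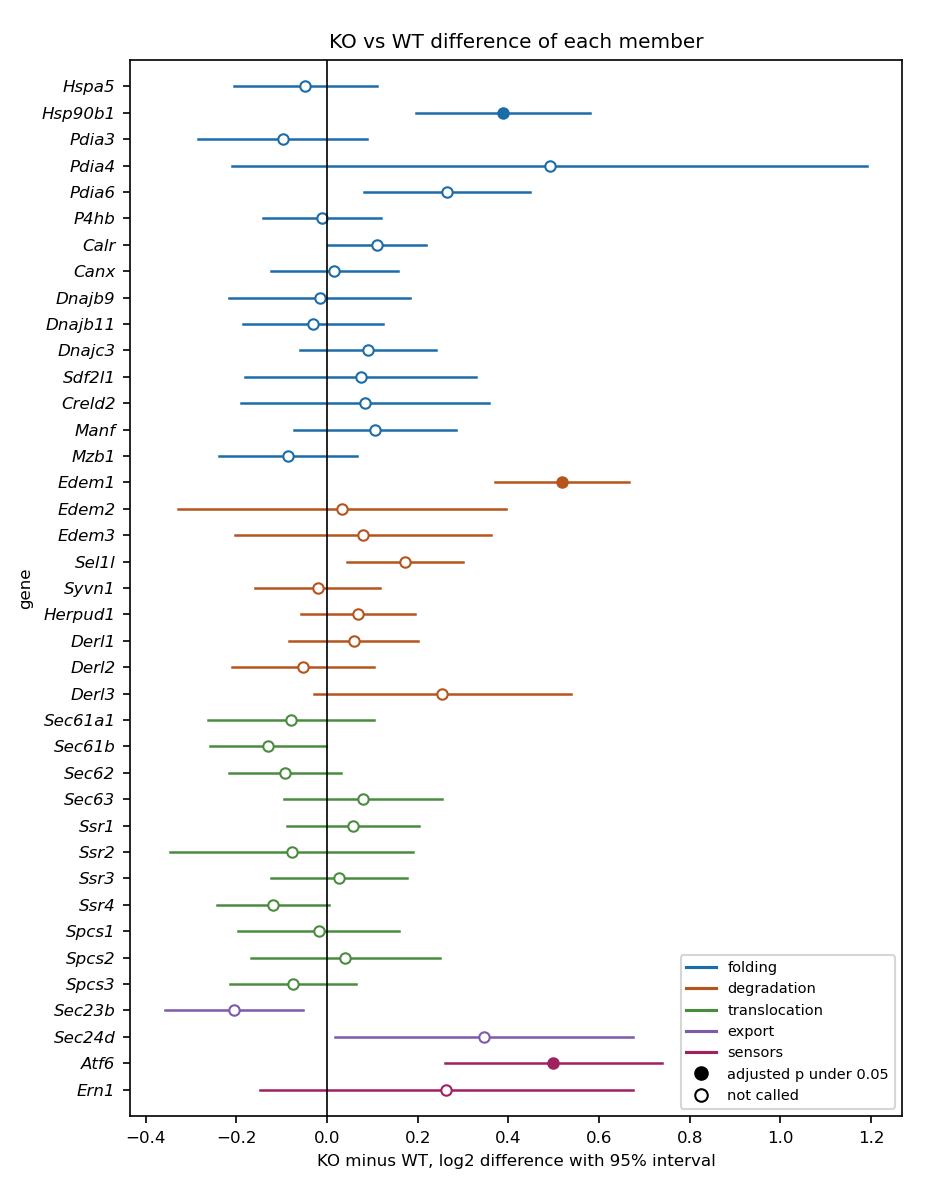
KO minus WT log2 difference of each member (points) with its 95% interval (lines), coloured by role; filled points passed an adjusted p under 0.05 in limma. Hsp90b1 at 0.39, Edem1 at 0.52 and Atf6 at 0.50 are filled, and the translocation genes lie between -0.13 and 0.08.

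Among the 15 folding genes, 1 rose (6.67%) and 0 fell in KO against WT, with a median of 0.074. Of all genes, 6.10% were higher and 5.83% lower. Hsp90b1 encodes GRP94, the HSP90 chaperone of the endoplasmic reticulum, which folds integrins, Toll-like receptors and immunoglobulin chains. Its signal was 2033, 2441 and 2320 on the WT arrays, 2231, 2152 and 2146 on the HET arrays and 2664, 3351 and 2885 on the KO arrays. Every KO array was above every WT and every HET array, and the WT and HET arrays overlapped. The mean was 2265 ± 209 in WT and 2967 ± 351 in KO (SD, n = 3 each), a log2 difference of 0.39 (SE 0.088, limma adjusted p = 0.013), and the second probe set of the gene gave 0.50. Without WT replicate 1, the lowest WT array, the difference was 0.31 and the adjusted p 0.055.

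Pdia6 encodes a protein disulfide isomerase that also binds HSPA5. On the WT arrays it read 1073, 1224 and 1158, on the HET arrays 1247, 1057 and 1212, and on the KO arrays 1316, 1430 and 1402. All KO arrays were again above all others, but the difference of 0.26 (SE 0.085) did not pass the test (limma adjusted p = 0.063). It passed only without HET replicate 2, with an adjusted p of 0.049.

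Hspa5 encodes BiP, the HSP70 chaperone that holds unfolded chains and keeps the sensors inactive, and is the usual readout of the response. Its signal was 6089, 6099 and 7455 on the WT arrays, 6436, 6404 and 6290 on the HET arrays and 5976, 6488 and 6464 on the KO arrays. The arrays of the 3 genotypes overlapped. The difference of KO from WT was -0.05 with a 95% interval of -0.20 to 0.11.

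The lectin chaperones, which hold glycoproteins during folding, were Calr (calreticulin, 0.11, adjusted p = 0.18) and Canx (calnexin, 0.02). The disulfide isomerases Pdia3 and P4hb differed by -0.10 and -0.01, while the second, dimmer Pdia3 probe set gave 0.47. Pdia4, another isomerase, had the largest difference of the folding genes at 0.49, but it was dim: 1 WT and 1 HET array lay below their array's median, and the interval ran from -0.21 to 1.19. Among the J-domain cochaperones of BiP, Dnajb9 differed by -0.02, Dnajb11 by -0.03 and Dnajc3 by 0.09, the last being also known as the kinase inhibitor P58IPK. Sdf2l1, which works with Dnajb11, differed by 0.07, Creld2 by 0.08 and the secreted stress protein Manf by 0.11. Mzb1, a B cell cofactor of GRP94 that assists antibody assembly, differed by -0.09. None of these passed the test in KO against WT.

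Of the 9 genes of degradation, 1 rose (11.1%) and 0 fell, with a median of 0.068. The shares over all genes were 6.10% higher and 5.83% lower. Edem1 encodes a mannosidase-like protein that marks misfolded glycoproteins for removal from the endoplasmic reticulum. Its signal was 2631, 2400 and 2261 on the WT arrays, 2803, 2603 and 2606 on the HET arrays and 3388, 3390 and 3656 on the KO arrays. The KO arrays stood above all the others by a gap wider than the spread within any genotype. The mean was 2430 ± 187 in WT and 3478 ± 154 in KO (SD, n = 3 each), which is 143% of WT, a log2 difference of 0.52 (SE 0.068, limma adjusted p = 3.70e-04). The second Edem1 probe set gave 0.35, and the call was made under all 21 alternatives.

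Sel1l encodes the adaptor that joins substrates to the ubiquitin ligase HRD1. Its values were 3055, 2958 and 3118 in WT, 3116, 2923 and 3222 in HET, and 3287, 3558 and 3444 in KO. The KO arrays were the 3 highest, yet the difference of 0.17 (SE 0.059) missed the threshold (limma adjusted p = 0.079). The other Sel1l probe sets kept gave -0.09, 0.09 and -0.16, so that 2 of them had the opposite sign.

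The remaining degradation genes did not pass. The paralogs of Edem1 differed little, Edem2 by 0.03 (interval -0.33 to 0.39) and Edem3 by 0.08 (interval -0.20 to 0.36). Syvn1, which encodes HRD1 itself, differed by -0.02, and Herpud1, a membrane scaffold of the same complex, by 0.07. The derlins, membrane proteins of the exit channel, were at 0.06 for Derl1, -0.05 for Derl2 and 0.25 for Derl3. The second Derl2 probe set gave 0.21, and the other Derl1 probe sets gave -0.03, -0.19 and -0.01. Derl3 was among the genes whose KO arrays were all above WT, at 707, 701 and 652 against 557, 600 and 569, while its HET arrays spread from 472 to 712, and its adjusted p was 0.24.

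**Figure D4:**
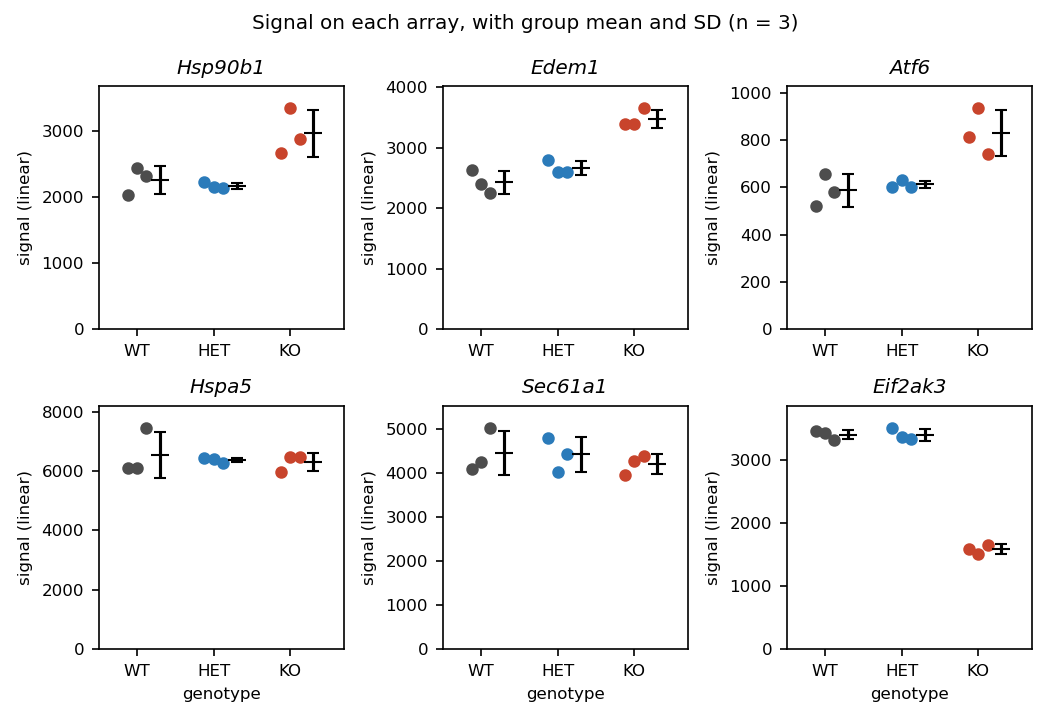
MAS5 signal (linear scale from 0) on each of the 9 arrays for 6 genes, with the mean and SD of the 3 arrays of each genotype to the right of the points. Hsp90b1, Edem1 and Atf6 have their 3 highest values in KO, Hspa5 and Sec61a1 overlap across genotypes, and Eif2ak3, a non-member encoding PERK, has KO values of 1512 to 1662 against 3321 to 3514 elsewhere.

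By the brightest probe set of each gene, the translocation genes had the narrowest range of differences of all the roles, of which export and sensors hold only 2 genes each. Over all kept probe sets of the translocation genes the range was wider, from -0.25 (Sec62) to 0.65 (Ssr4). The values that follow are those of the brightest probe sets. In KO against WT, 0 of 11 were called, against 6.10% higher and 5.83% lower of all genes. At those shares, 0 in 11 cannot be told from the background. Of the 11, 1 (9.09%) had an unadjusted limma p under 0.05, against 25.7% of all genes. The differences ran from -0.13 to 0.08 with a median of -0.08, and every 95% interval lay between -0.35 and 0.25. Sec61b, the beta subunit of the channel, had the largest difference. Its signal was 7531, 7613 and 7776 on the WT arrays, 6966, 7697 and 7079 on the HET arrays and 6947, 6500 and 7534 on the KO arrays. The KO arrays tended low but overlapped WT by a narrow margin at -0.13 (SE 0.059, limma adjusted p = 0.19).

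Ssr4, the delta subunit of the translocon-associated protein complex, was the other gene of this group with a larger difference. It read 3827, 3970 and 4033 in WT, 3982, 3973 and 3659 in HET, and 3612, 3486 and 3788 in KO. All KO arrays were below all WT arrays, at -0.12 (SE 0.057, limma adjusted p = 0.21). The direction depends on the probe set: the other Ssr4 probe sets gave 0.38 and 0.65, and the mean over the probe sets was 0.30 with an adjusted p of 0.034.

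The other translocation genes were the channel subunit Sec61a1 at -0.08, its partners Sec62 at -0.09 and Sec63 at 0.08, the translocon-associated subunits Ssr1 at 0.06, Ssr2 at -0.08 and Ssr3 at 0.03, and the signal peptidase subunits Spcs1 at -0.02, Spcs2 at 0.04 and Spcs3 at -0.08. Some of these genes had other kept probe sets of the opposite sign. For Sec61a1 the other kept probe sets gave -0.12, 0.17 and 0.24. None of these translocation genes was called in KO against WT under any of the alternatives.

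Both export genes encode subunits of the COPII coat, and their differences had opposite signs. Sec23b, the inner coat subunit whose human counterpart is mutated in a congenital anemia, read 1910, 2046 and 1876 in WT, 1950, 1925 and 1989 in HET, and 1693, 1562 and 1811 in KO. The 3 KO arrays were the lowest of the 9, with a difference of -0.20 (SE 0.070, limma adjusted p = 0.080). Sec23b was called lower with arrays centred on their medians and without KO replicate 3.

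Sec24d, a cargo-binding subunit that carried the UPRE in its window, read 218, 244 and 165 in WT, 271, 282 and 253 in HET, and 249, 265 and 275 in KO. Here the HET and KO arrays overlapped, and all of both lay above WT. The difference from WT was 0.35 (SE 0.15) in KO, with a limma adjusted p of 0.17, and 0.38 in HET, with an adjusted p of 0.998 and an unadjusted p of 0.027.

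Of the sensors, Atf6 rose. It encodes a membrane-bound transcription factor that is cut in the Golgi under stress and then binds ERSEs. Its signal was 521, 657 and 580 on the WT arrays, 603, 630 and 602 on the HET arrays and 814, 934 and 739 on the KO arrays. No KO array overlapped another genotype. The mean was 586 ± 68.2 in WT and 829 ± 98.3 in KO (SD, n = 3 each), a log2 difference of 0.50 (SE 0.11, limma adjusted p = 0.011), and the other Atf6 probe sets gave 0.36 and 0.17. Without KO replicate 2, the highest array, the difference was 0.38 and the adjusted p 0.12.

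Ern1 encodes IRE1, the kinase and nuclease that splices Xbp1 mRNA, whose spliced form was not analysed here. It read 158, 113 and 143 in WT, 149, 116 and 109 in HET, and 157, 189 and 150 in KO. The KO arrays overlapped WT, and the difference of 0.26 (SE 0.19) did not pass (limma adjusted p = 0.42).

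The differences of genes with and without an ERSE overlapped. Of the 9 genes that carry one, 1 was called in KO against WT, Hsp90b1, against 6.10% higher and 5.83% lower of all genes. The differences of the 9 ran from -0.05 (Hspa5) to 0.39 (Hsp90b1) with a median of 0.09. The 23 tested genes with a window and no ERSE had a median of 0.03. Edem1 rose with none in its window, and Atf6, which also rose, had no window and is in neither group.

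KO was also compared with HET, a comparison that shares its KO arrays with the one above and is no separate evidence. In it 3 members were called higher and 0 lower, against 4.56% higher and 4.43% lower of all genes, with a members' median of 0.00073 and 6 members (15.4%) at an unadjusted p under 0.05, against 23.2% of all genes. The 3 were Hsp90b1, which differed by 0.44 (adjusted p = 0.0085), Edem1 by 0.38 (adjusted p = 0.0042) and Atf6 by 0.43 (adjusted p = 0.030). Without KO replicate 2 the Atf6 difference from HET was 0.17 and its adjusted p 0.53; leaving out KO replicate 1 or any single HET replicate also ended the call, with adjusted p of 0.064 to 0.081. Pdia6 (0.24), Sel1l (0.15) and Sec23b (-0.21) did not pass here either, with adjusted p of 0.10, 0.14 and 0.082.

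In HET, where 1 allele was floxed, no member passed the test. In HET against WT 0 of 39 were called by limma, against 0.00968% of all genes (1 gene), the median was -0.0065, and the differences ran from -0.14 to 0.38. Only Sec24d (2.56% of the members) had an unadjusted p under 0.05, against 4.18% of all genes. Edem1 stood at 0.14 in HET, with a 95% interval of -0.01 to 0.29. Its HET mean of 2670 ± 115 (SD, n = 3) lay between those of WT and KO, and its HET and WT arrays overlapped.

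A wider list of 108 other genes of the same pathway was compared, of which 102 were tested. In KO against WT, 0 rose and 7 (6.86%) fell by limma, against 6.10% higher and 5.83% lower of all genes. Their median was -0.0059, and 20 (19.6%) had an unadjusted p under 0.05, against 25.7% of all genes. The stress signalling genes held 3 of the 7, out of 13 tested (23.1%, against 5.83% lower of all genes). Of these 13, 2 (15.4%) were above zero, against 52.3% of all genes. These shares over few genes were not tested. Eif2ak3, which encodes the sensor kinase PERK, read 3468, 3435 and 3321 in WT, 3514, 3364 and 3345 in HET, and 1594, 1512 and 1662 in KO. The KO signal was 46.6% of WT, a log2 difference of -1.10 (SE 0.058, limma adjusted p = 5.07e-07), and the means of WT and HET were both 3408. Atf4, the transcription factor translated when PERK is active, fell by 0.25 (adjusted p = 0.0095), and Trib3, a pseudokinase induced by that branch, fell by 0.91 (adjusted p = 0.019; 0.053 to 0.071 in 3 of the 9 fits that leave out 1 array: WT replicate 1, WT replicate 3 or KO replicate 3). Of the 3 sensors, 1 thus rose (Atf6), 1 fell (Eif2ak3) and 1 was not called (Ern1). Xbp1, named after its values were seen as the target of IRE1, differed by -0.05.

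In the other pathway groups, Txndc11, a thioredoxin-domain partner of EDEM proteins, fell by 1.33 (adjusted p = 3.96e-05), with signals of 784, 1006 and 623 in KO against 1922, 1966 and 2093 in WT. The ubiquitin-conjugating enzyme Ube2j1 of the degradation route fell by 0.28 (limma adjusted p = 0.020), and its second probe set gave -0.55. The deglycosylase Ngly1 fell by 0.32 (limma adjusted p = 0.028) and the translocation protein Tram2 by 0.68 (limma adjusted p = 0.021). These last 3 calls each rest on single arrays. The variance model mattered too: without a variance trend Ube2j1 had a limma adjusted p of 0.066 and Tram2 of 0.079. With robust eBayes Tram2 had 0.059. Ube2j1 needed both WT replicate 2 and KO replicate 1; Ngly1 missed the threshold when WT replicate 2 or 3 or KO replicate 1 or 3 was left out, and Tram2 when WT replicate 1 or 3 or KO replicate 1 or 3 was, the adjusted p of all 3 genes then running from 0.055 to 0.11. Glycosylation genes (14 tested) and export genes (26 tested) had 0 calls by limma, against 6.10% higher and 5.83% lower of all genes. In these groups, 1 and 4 genes had an unadjusted limma p under 0.05, against 25.7% of all genes. The smallest limma adjusted p were 0.086 for the mannosidase Man1b1 (0.42) and 0.053 for the retrieval receptor Kdelr1 (0.32). In KO against HET 3 of the 102 were higher and 6 lower, against 4.56% and 4.43% of all genes.

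**Figure D5:**
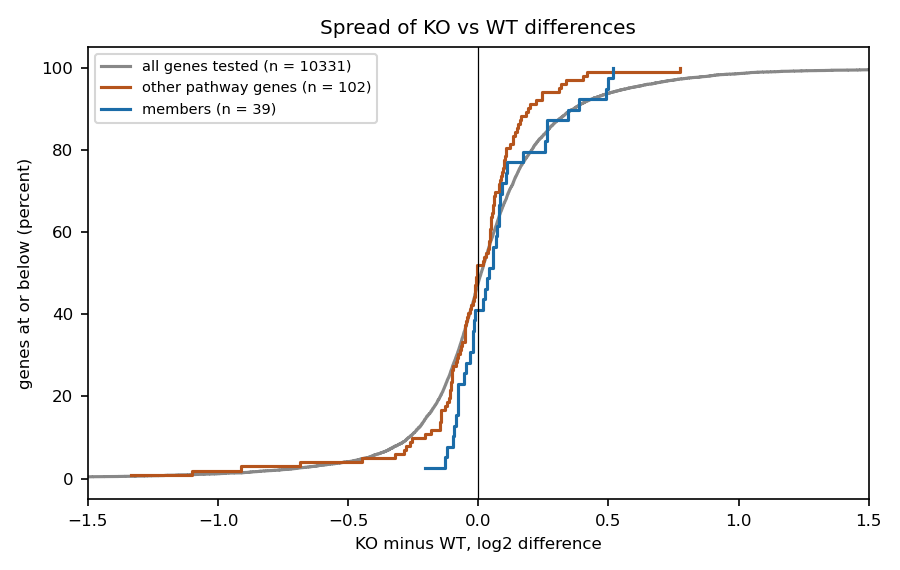
Cumulative share (percent) of genes at or below each KO minus WT log2 difference, for the 39 members, the 102 other pathway genes tested and all 10331 genes tested; differences beyond 1.5 either way are not drawn. The members' curve begins at -0.20 and ends at 0.52, while that of the other pathway genes runs from -1.33 to 0.77.

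The labelled cell type was checked against its markers. Of 12 GC B cell genes listed, 10 were tested, with summed signals of 55523 to 60515 in WT, 56847 to 57328 in HET and 54579 to 56611 in KO; in KO, Fas, which encodes the sort marker CD95, rose by 0.30, Gcsam fell by 1.36 and Rgs13 fell by 0.25. Of 11 plasma cell genes tested, 6 rose, 2 fell and 3 were not called in KO. Slpi rose by 1.11, Tnfrsf13b by 0.59 and Irf4 by 0.61, and Slamf7 fell by 0.77. Prdm1, named after its values were seen, rose by 0.86. Trp53inp1, which fell by 0.32, and the 3 not called were also named after their values were seen. Those 3 were Jchain at -0.06, Pim2 at -0.04 and Xbp1 at -0.05. The summed signal of the plasma cell list was 35969 to 37721 in WT, 37194 to 39851 in HET and 41162 to 44243 in KO. Tnfrsf17 never reached an array's median. Of 8 myeloid genes tested, 4 rose, Cd68 by 0.67, Lyz2 by 1.78, Mpeg1 by 0.94 and Csf1r by 2.46, the last 3 calls being lost in 3, 4 and 5 of the 9 fits that leave out 1 array, with summed signals of 1257 to 2082 in WT, 1462 to 2338 in HET and 2346 to 3679 in KO, and Cd14 and Itgam never reached an array's median. The T cell list had 0 calls by limma in 4 genes, 1 with an unadjusted p under 0.05, and sums of 272 to 469 over all arrays, with Cd3d, Cd3g and Cd4 below the array median throughout, and 0 erythroid genes were tested. The KO arrays on which Hsp90b1, Edem1 and Atf6 were higher were thus also those with the highest plasma cell and myeloid sums; their part in these 3 results was not tested. Of the antibody constant regions, main cargo of this machinery in B cells, 3 of 10 were tested, and Ighm differed by 0.39 (adjusted p = 0.0030) by its brightest probe set but by -1.19 as the mean of its probe sets.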

How the data were processed

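Arrays were hybridised with cDNA amplified by a NuGEN kit, per the labels' protocols. The deposited table holds linear intensity values (signals), 1 for each probe set on each array, made by the authors with MAS5, per the submitters' processing notes, with no version given; a mean trimmed by 2% at both ends equalled 500 throughout. The table held 45101 probe sets, of which 34945 carried 1 symbol. The members, gene lists and tests were chosen with earlier results of these data known.

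Signals were analysed as log2(signal + 2.09), the offset being the 10th percentile of all signals, which understates changes of dim genes. Probe sets at or above the array median on at least 3 of the 9 arrays were kept, and each gene was represented by its brightest kept probe set. Of the members' 94 probe sets 83 were kept; of 23 members with more than 1, the sets pointed the same way in KO against WT in 11 and both ways in 12. limma 3.58.1 (lmFit, eBayes with trend, R 4.3.3) fitted all 9 arrays at once, and two-sided p-values were adjusted by the Benjamini-Hochberg method over 10331 genes. Calls were made at an adjusted p under 0.05, and the fit was tested on simulated data. Every member was named; called members and the 2 of each role with the largest moderated t statistic in KO against WT were given by array, and of other lists at most 4 genes with the smallest adjusted p. Further plasma cell genes were named after their values were seen. The number of arrays limits the precision. Alternatives covered the offset, the filter, normalization, choice of probe set, variance model and each array left out. Motifs were searched as exact matches on both strands of RefSeq windows.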

Additional observations from a re-analysis of the deposited data

How the results depend on the processing

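Edem1 kept its direction and its call in KO against WT under all 21 alternatives, with differences of 0.44 to 0.58. Atf6 kept its direction under all 21. Hsp90b1 kept its direction under the 20 that could assess it, as it had no probe set left without those of shared suffix. Hsp90b1 missed the threshold without a variance trend (adjusted p = 0.0503) and without WT replicate 1 (0.055), and Atf6 without KO replicate 2 (0.12); against HET, Atf6 missed it in 8 of 21. The members called higher in KO against WT numbered 5 under quantile normalization; members called lower numbered 1 with arrays centred on their medians in KO against WT and in KO against HET, and 0 to 1 with an array left out in each. The cause of these changes was not tested. With an array left out, the members' median in KO against WT ran from -0.0073 (without WT replicate 1) to 0.088 (without WT replicate 3), so its sign rests on single arrays.

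Over all genes, leaving out an array gave 768 to 1183 calls in KO against WT (1232 with all arrays), 543 to 895 in KO against HET (929) and 1 to 3 in HET against WT; the last was also 3 with robust eBayes, with array weights and with only the 2 groups compared. Other pathway genes called higher in KO against WT numbered 1 under quantile normalization, 3 when probe sets were averaged per gene, 1 without probe sets of shared suffix, 1 without a variance trend and 0 to 1 with an array left out; those called lower numbered 4 to 8 with an array left out. The sign turned for Ssr4 in KO against WT, from an uncalled -0.12 to a called 0.30 with the mean of its probe sets, and for Ighm, called on both sides, with the mean of its probe sets and without shared suffixes, at -1.19 and -1.85 in KO against WT and -1.12 and -1.78 in KO against HET; in each the alternative uses other probe sets. No paired analysis was possible because no replicate number is shared between genotypes in the labels.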
